A study of Mus musculus with 2 samples.

Results

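Dab2, Cubn, Lrp2 and Amn, which encode parts of the endocytic machinery of endoderm, were selected by their gene symbols from the 55415 features of a single-cell RNA experiment on mouse embryonic stem cells. The 4 symbols each matched 1 feature, in both libraries. In these cells the MERVL promoter, which belongs to an endogenous retrovirus transcribed in a state that resembles the 2-cell embryo, drives GFP; they also express H2B-mIFP, a nuclear far-red label. The series was made to follow what becomes of cells that enter that state. There were 2 groups with 1 library each, the MERVL-GFP positive library (4596 of 4603 cells kept, 138303336 UMIs, a median of 29554.5 UMIs per cell) and the MERVL-GFP negative library (all 3832 cells kept, 156406894 UMIs, a median of 39099.5). Both groups carry both transgenes, and the labels do not say how the cells were separated, whether the line was 1 clone, or how it was cultured.

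Dab2 (Disabled-2) is a cargo adaptor that links the cytoplasmic tails of lipoprotein receptors to clathrin and its adaptor AP-2. Lrp2 (megalin) is a giant endocytic receptor of the lipoprotein receptor family. Cubn (cubilin) is a large receptor with no transmembrane segment of its own, and Amn (amnionless) is the small transmembrane protein that carries it to the surface; the pair is called cubam, and it takes up its ligands together with megalin. In the embryo the 4 genes are known from extraembryonic endoderm, above all visceral endoderm, which absorbs maternal proteins, and in the adult from the kidney proximal tubule. Gata6 and Sox17, transcription factors of primitive endoderm, were used to divide the cells, as was Zscan4, a gene family switched on in the state that resembles the 2-cell embryo.

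The promoter windows of the genes are shown because the genes were compared across cells that differ in transcripts of a GATA and a SOX factor. Each window runs from 250 bases before to 50 bases after a transcript start, is taken from RefSeq on GRCm38.p6, and is written 5′ to 3′ on the strand of the gene. All 4 genes had an entry, and Dab2 had 2 starts. Capitals mark the GATA core GATAA on either strand (read as TTATC where it lies on the other strand); ACAAT, a SOX core, was searched on both strands too.
Dab2, upstream start, chr15:6299539-6299838, plus strand: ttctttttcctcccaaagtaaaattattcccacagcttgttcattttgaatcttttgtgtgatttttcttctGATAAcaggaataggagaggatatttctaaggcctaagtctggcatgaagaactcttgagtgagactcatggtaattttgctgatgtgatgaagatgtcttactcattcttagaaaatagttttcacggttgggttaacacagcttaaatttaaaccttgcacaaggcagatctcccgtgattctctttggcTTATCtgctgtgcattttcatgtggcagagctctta
Cubn, chr2:13491827-13492126, minus strand: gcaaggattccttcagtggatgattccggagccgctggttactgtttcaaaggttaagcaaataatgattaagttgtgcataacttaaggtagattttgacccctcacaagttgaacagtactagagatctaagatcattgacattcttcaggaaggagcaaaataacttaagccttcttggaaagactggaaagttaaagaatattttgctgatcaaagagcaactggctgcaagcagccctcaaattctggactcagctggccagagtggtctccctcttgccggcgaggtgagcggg
Lrp2, chr2:69585980-69586279, minus strand: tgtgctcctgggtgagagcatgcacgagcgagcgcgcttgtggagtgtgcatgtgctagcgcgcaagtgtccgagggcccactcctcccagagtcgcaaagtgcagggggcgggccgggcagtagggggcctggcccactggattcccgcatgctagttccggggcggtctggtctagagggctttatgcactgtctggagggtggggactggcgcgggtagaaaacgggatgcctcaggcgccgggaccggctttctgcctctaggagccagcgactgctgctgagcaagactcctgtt
Amn, chr12:111270846-111271145, plus strand: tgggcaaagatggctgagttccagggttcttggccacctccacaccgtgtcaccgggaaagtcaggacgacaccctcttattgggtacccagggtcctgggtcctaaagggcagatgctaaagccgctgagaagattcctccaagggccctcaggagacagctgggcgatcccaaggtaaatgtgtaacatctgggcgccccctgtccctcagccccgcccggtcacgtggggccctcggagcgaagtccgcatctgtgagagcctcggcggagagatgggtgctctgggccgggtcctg
The upstream Dab2 window held GATAA at base 73 of its 300 bases and, on the opposite strand, at base 265. The windows of Cubn, Lrp2, Amn and the downstream Dab2 start (chr15:6386498-6386797, plus strand) held neither core, and the upstream Dab2 window held no ACAAT. Of all 32851 promoter windows, 25.4% held GATAA, 31% held ACAAT and 10.4% held both. A match is a description of the letters and not a bound site. The windows also differed in base composition: the upstream Dab2 start had 37.7% G and C and 2 CpG dinucleotides, Cubn had 44.3% and 5, and Lrp2 (65%, 20), Amn (62.3%, 15) and the downstream Dab2 start (59.3%, 19) were richer in both.

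In GENCODE vM21 on GRCm38, the build named in the submitters' processing notes as mm10, Dab2 lies at chr15:6299788-6440712 on the plus strand and has up to 15 exons. Cubn (chr2:13276338-13491813, minus strand, up to 67 exons) and Lrp2 (chr2:69424340-69586065, minus strand, up to 79 exons) are on chromosome 2, and Amn is a compact gene of 5332 bases (chr12:111271095-111276426, plus strand, up to 12 exons). All are protein-coding. The span of Dab2 overlaps Gm16311 and Gm18888 and that of Cubn overlaps Gm13270, each annotated on the opposite strand; whether counting used strand is not stated, so reads of these pairs cannot be told apart. Levels below are CPM (the UMIs of a gene scaled to 1000000 UMIs of the summed cells), and they are compared for 1 gene at a time because CPM is not scaled to gene length.

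With a single library per group, differences between the groups have no replicate check and were not tested. Every interval is at 95% and covers counting error alone. Since the batch label repeats the group, the 2 cannot be told apart. GFP transcript was at 204.6 CPM in the positive library and 0.454 CPM in the negative library. Pluripotency markers were present in both libraries: Pou5f1, Sox2, Nanog and 4 more pluripotency genes summed to 3206 and 3571 CPM, a value that does not give the state of each cell. The libraries share 3 barcodes, and without them the log2 ratios of the 4 genes between the libraries were 1.955 for Dab2, 1.04 for Cubn, 0.71 for Lrp2 and 0.18 for Amn, against 1.959, 1.04, 0.71 and 0.18 with them.

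All 4 genes had a higher CPM in the positive library, Dab2 by the widest margin and Amn by the narrowest. Dab2 was at 82.55 CPM (81.0 to 84.1) in the positive and at 20.5 CPM (19.8 to 21.2) in the negative library; their ratio was 4.03 (3.88 to 4.19). Cubn was at 10.2 and 4.44 CPM, a ratio of 2.3 (2.10 to 2.52). Lrp2 was at 24.7 and 14.7 CPM, a ratio of 1.68 (1.60 to 1.78). For Amn the levels were 7.84 and 6.80 CPM and the ratio 1.15 (1.06 to 1.26), and its direction depended on the scaling. With TMM or median-of-ratios factors the log2 ratio of Amn became -0.08, against 0.18 on CPM, while the median log2 ratio of all genes moved from 0.14 on CPM to -0.14 under either scaling. The other 3 genes stayed higher in the positive library under both scalings.

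A difference was called by size only: at least 10 CPM in either sum, at least 50 UMIs in both together and a ratio of CPM + 1 of at least 4. Between the libraries 3% of 8042 genes were called higher in the positive library and 0.0124% lower, and none of the 4 genes was called. Dab2 was just under the limit, with a log2 ratio of CPM + 1 of 1.96, and 3.08% of the genes tested had a ratio at least as high. Without cells above 2 times the median UMIs it was at 2.01, over the limit, so its call depends on that setting. Amn was below 10 CPM in both libraries and so was not tested. Gata6 was at 60.7 and 42.2 CPM and Sox17 at 17.3 and 12.8 CPM, ratios of 1.44 (1.39 to 1.49) and 1.35 (1.27 to 1.43), smaller than the ratio of Dab2. Other marker lists moved with Dab2 between the libraries. Of 12 markers of the 2-cell-like state, Zscan4 genes among them, 8 were tested and 8 called higher, and the list summed to 552.8 and 0.825 CPM. The 6 parietal endoderm markers tested, of 9, were above 0 with 0 called (median log2 ratio 1.35, sums 881.7 and 358 CPM). Of 4 trophoblast genes tested, of 9, Krt18 was called higher (36.7 and 8.13 CPM), while Tfap2c was at 18.4 and 39.5 CPM. Cited1, a visceral endoderm marker below 10 CPM and so not tested, was at 7.89 and 0.876 CPM, a ratio of 9.01 (7.53 to 10.8). Their part in the library difference of Dab2 was not tested.

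In the positive library the 5% of cells with the most UMIs of a gene held 74.3% of the Dab2 UMIs and 36.9% of those of Lrp2, while 32.2% and 39.5% of cells had a UMI of them. Such a share is partly set by how many cells have a UMI, so it is not given for the genes seen in fewer cells. The richest single cell had 149 Dab2 UMIs in the positive and 95 in the negative library. Because whole cells carry many UMIs together, the spread between cells is wider than the counting intervals.

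To compare shares of cells, each cell was thinned to 10000 UMIs, leaving out 194 positive-library and 8 negative-library cells. Dab2 was then detected in 18.3% of positive-library cells (17.1 to 19.4, exact binomial) and 6.41% of negative-library cells (5.65 to 7.23). Cubn was detected in 5.93% and 2.38%, Amn in 6.16% and 4.39%, and Lrp2 in 18.5% and 12.5%. Without thinning the shares were 32.2% and 14.8% for Dab2, 11.2% and 5.56% for Cubn, 13.4% and 11.7% for Amn, and 39.5% and 38.2% for Lrp2. Cells with none of Gata6, Sox17 or Zscan4 after thinning served as a reference, and whether their UMIs are stray or their own was not tested. Among 1557 such cells of the positive library (median 33108 UMIs) Dab2 was seen in 8.61%, Cubn in 2.18%, Lrp2 in 15.8% and Amn in 3.85%. Among 3441 such cells of the negative library (median 39137 UMIs) the shares were 3.11%, 0.814%, 11.3% and 2.03%.

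**Figure D1:**
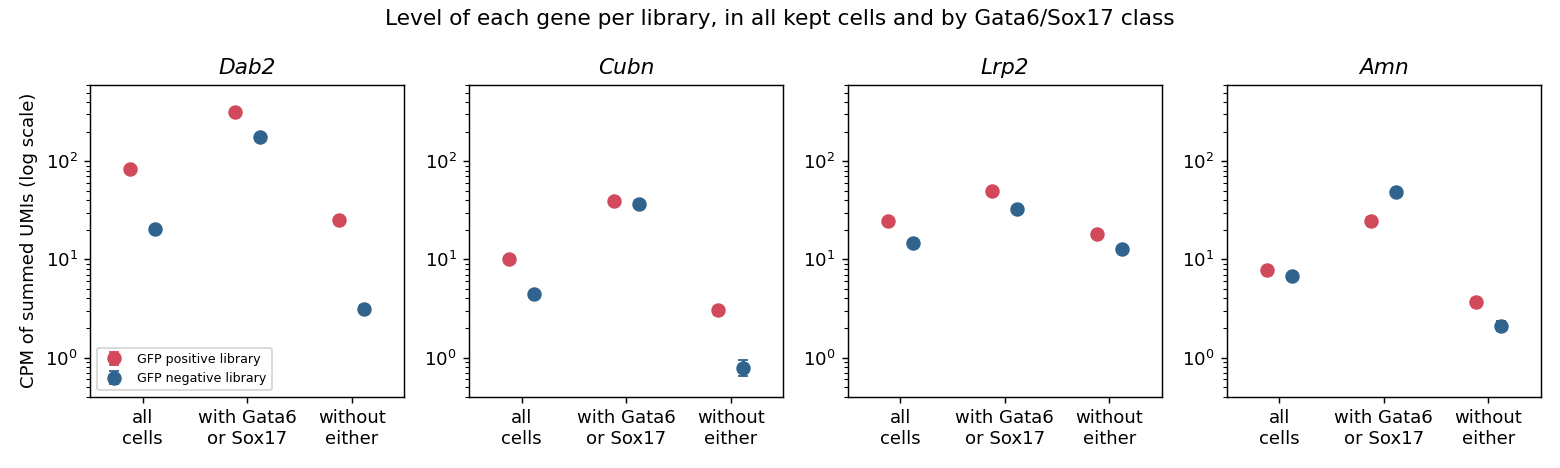
Level of Dab2, Cubn, Lrp2 and Amn as CPM of summed UMIs (log axis) in the MERVL-GFP positive (red) and negative (blue) library, in all kept cells, in cells with a thinned UMI of Gata6 or Sox17 and in cells without; bars are exact 95% Poisson intervals for counting error only, often smaller than the point. Dab2 is highest in cells with Gata6 or Sox17 (321.6 and 177.3 CPM), and for Amn the order of the libraries in those cells is turned (24.8 and 49.1 CPM).

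The cells with Gata6 or Sox17 transcripts carried most of the Dab2, Cubn and Amn UMIs in both libraries. A cell was counted as having them with at least 1 UMI of either among its 10000, which gave 883 of 4402 positive-library cells (20.1%) and 375 of 3824 negative-library cells (9.81%). In the negative library Dab2 was at 177.3 CPM in cells with and 3.12 CPM in cells without them, a ratio of 56.9 (51.4 to 63.0). Cubn was at 36.9 and 0.789 CPM there, a ratio of 46.8 (38.1 to 57.8), and Amn at 49.1 and 2.10 CPM, a ratio of 23.4 (20.5 to 26.9). In the positive library the ratios were smaller: 12.9 (12.3 to 13.5) for Dab2 at 321.6 and 25.0 CPM, 13.1 (11.5 to 14.8) for Cubn at 39.6 and 3.03 CPM, and 6.72 (5.93 to 7.62) for Amn at 24.8 and 3.69 CPM. Median depth was close between the classes, at 29230 and 30484 UMIs in the positive and 39048 and 39132 in the negative library.

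Lrp2 differed far less between the same cells. It was at 49.8 CPM in cells with Gata6 or Sox17 and 18.3 CPM in cells without them in the positive library, a ratio of 2.73 (2.54 to 2.93), and at 32.5 and 12.7 CPM in the negative library, a ratio of 2.56 (2.31 to 2.83). By the size rule Dab2, Cubn and Amn were called higher in both libraries and Lrp2 in neither. With classes from all UMIs of a cell, Amn lost its call in the positive library, at a log2 ratio of 1.87 against 2.46 after thinning. Of all genes tested, 0.581% of 8094 were called higher and 0% lower in the positive library, and 1.27% of 7472 higher and 0% lower in the negative library. The median log2 ratio over all tested genes was near 0 in both, at 0.0022 and 0.0139.

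The levels climbed with the number of Gata6 and Sox17 UMIs. In the positive library, cells with 0, 1, 2 to 4 and at least 5 of them had Dab2 at 25.0, 131.2, 364.8 and 608.1 CPM. Cubn was at 3.03, 12.3, 30.1 and 90.5 CPM and Amn at 3.69, 7.64, 23.1 and 54.2 CPM over the same steps, and Lrp2 had the shallowest climb, at 18.3, 27.4, 54.0 and 84.0 CPM. In the negative library the main step lay between 1 and 2 UMIs. Dab2 was at 3.12 and 15.6 CPM with 0 and 1 UMI and at 249.5 and 275.3 CPM with 2 to 4 and at least 5, and Amn was at 2.10, 4.08, 72.8 and 75.3 CPM. The step of 2 to 4 UMIs rests on 55 cells there.

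**Figure D2:**
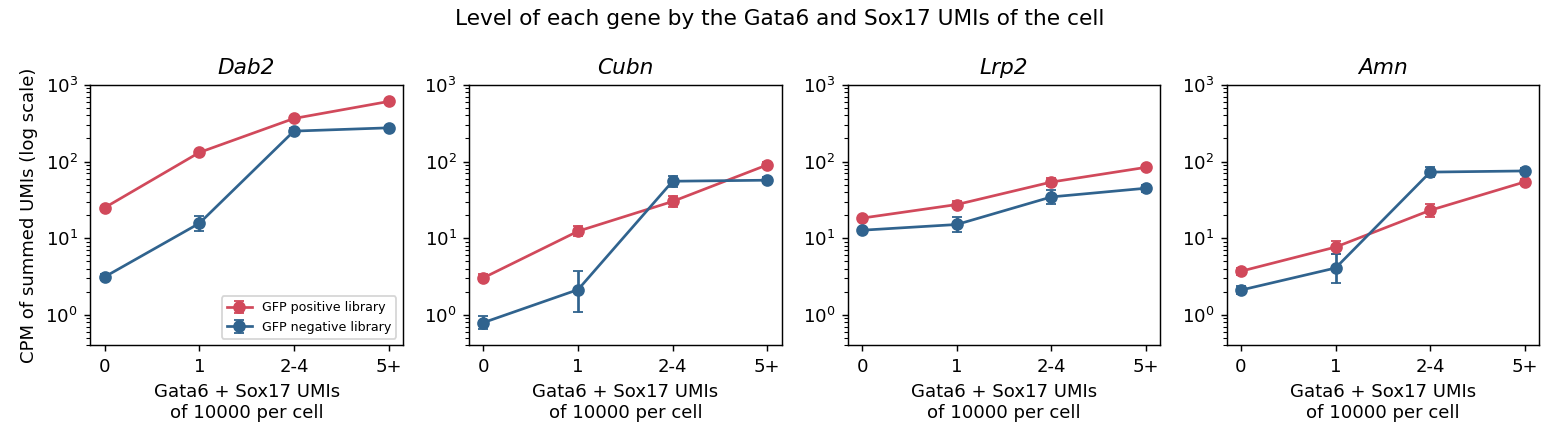
Level of each gene as CPM of summed UMIs (log axis) against the summed Gata6 and Sox17 UMIs of a cell among 10000 (0, 1, 2 to 4, 5 or more), in the MERVL-GFP positive (red) and negative (blue) library; bars are exact 95% Poisson intervals for counting error only. Dab2, Cubn and Amn span a wide range over the steps, and Lrp2 a narrow one, from 12.7 to 44.8 CPM in the negative library.

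Cells with both factors had the highest levels in both libraries, and in the positive library those with Sox17 alone had the lowest. In that library Dab2 was at 631.5 CPM in 202 cells with both factors, 279.2 CPM in 480 cells with Gata6 only and 58.7 CPM in 201 cells with Sox17 only. Amn was at 58.0, 17.0 and 5.24 CPM in these classes, Cubn at 95.8, 26.9 and 5.05 CPM, and Lrp2 at 85.7, 44.7 and 19.9 CPM. In the negative library cells with both factors again stood out for Dab2 (366.7 CPM in 146 cells), while Gata6 only (57.7 CPM, 195 cells) and Sox17 only (47.5 CPM, interval 36.7 to 60.4, 34 cells) overlapped within counting error. Amn did the same there, at 91.9, 22.1 and 20.1 CPM.

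Among cells with Gata6 or Sox17, the libraries ranked in opposite order for Amn and Dab2. Dab2 was higher in the positive library by a ratio of 1.81 (1.74 to 1.89) and Lrp2 by 1.53 (1.38 to 1.70). Amn was lower in the positive library, with a ratio of 0.505 (0.455 to 0.561). Cubn had an interval that includes equal levels, at 39.6 and 36.9 CPM with a ratio of 1.07 (0.969 to 1.19); its log2 ratio was 0.10 on CPM and turned to -0.19 with TMM and -0.18 with median-of-ratios factors. The share of all genes called higher in the positive library among these cells was 3.18%, and none of the 4 genes was called. Of the markers of the 2-cell-like state 8 were tested and 8 called higher (list sums 564 and 2.12 CPM). Of 6 primitive endoderm markers tested 0 were above 0 (median log2 ratio -0.31, list sums 652.8 and 874.2 CPM). Of 7 parietal endoderm markers tested 6 were above 0 (median 0.33, list sums 2483 and 1954 CPM). Their part in the library differences was not tested. In cells with at least 5 Gata6 and Sox17 UMIs (244 and 182 cells) the order was the same for Dab2, at 608.1 and 275.3 CPM, and for Amn, at 54.2 and 75.3 CPM with a ratio of 0.720 (0.634 to 0.816). Cubn was higher in the positive library in these cells, at 90.5 and 57.0 CPM with a ratio of 1.59 (1.41 to 1.79), and so was Lrp2, at 84.0 and 44.8 CPM with a ratio of 1.87 (1.64 to 2.14). In this class all 4 genes kept their sign under both other scalings.

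In cells without Gata6 or Sox17 UMIs after thinning, Dab2 had the highest library ratio of the 4 genes. It was at 25.0 CPM in 3519 positive-library and 3.12 CPM in 3449 negative-library cells, a ratio of 8.0 (7.23 to 8.87). This was a called difference, where 2.93% of genes were called higher. Cubn was at 3.03 and 0.789 CPM, a ratio of 3.84 (3.09 to 4.81), Amn at 3.69 and 2.10 CPM, a ratio of 1.76 (1.51 to 2.06), and Lrp2 at 18.3 and 12.7 CPM, a ratio of 1.44 (1.35 to 1.54). Cubn and Amn were below 10 CPM and not tested. Of the endosome genes in the pathway lists, Clcn5, a chloride-proton exchanger of endosomes, was called higher in the same comparison, at 31.2 and 6.57 CPM. The Gata6 and Sox17 UMIs left in these cells before thinning moved the same way, with Gata6 at 4.99 and 2.47 CPM and Sox17 at 3.09 and 0.647 CPM. In the 2874 and 3083 cells with no such UMI even before thinning, Dab2 was at 19.6 and 2.79 CPM. Markers of other lists moved with Dab2 here too. Of the 12 markers of the 2-cell-like state 8 were tested and 8 called higher, and the list summed to 531.3 and 0.682 CPM. All 6 parietal endoderm markers tested were above 0 (median log2 ratio 1.60, summed level of the 9 markers 485.9 and 180.6 CPM), and Col4a1 and Col4a2 were called higher. Of 4 trophoblast genes tested, the keratins Krt8 (28.7 and 5.78 CPM) and Krt18 (37.3 and 7.49 CPM) were called higher, while Tfap2c was at 19.9 and 40.8 CPM, and the list summed to 107.9 and 64.8 CPM. Cited1, a visceral endoderm marker, was at 7.93 and 0.654 CPM, below 10 CPM and not tested. Their part in the difference of Dab2 was not tested.

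A few positive-library cells without Gata6 or Sox17 were rich in Dab2. Of 2874 cells with no Gata6 or Sox17 UMI even before thinning, 57 (1.98%) had at least 5 Dab2 UMIs, a limit set after the values were seen, and these cells held 52.8% of the 1714 Dab2 UMIs, with 47.2% in 660 cells with 1 to 4. The negative library had 1 such cell among 3083, and its richest cell had 5 Dab2 UMIs, against 65 in the positive library. The other 3 genes, which did not choose the cells, were higher in the 57 cells than in the 2157 cells with no Dab2 UMI: Cubn at 37.4 CPM (27.9 to 49.1) against 1.74, Amn at 31.0 CPM (22.4 to 41.7) against 3.02, and Lrp2 at 57.6 CPM (45.6 to 71.7) against 16.4. The 660 cells with 1 to 4 Dab2 UMIs had Cubn at 2.38, Amn at 3.13 and Lrp2 at 19.1 CPM. Their intervals overlap those of cells with none, for Lrp2 only at the ends (17.3 to 21.1 against 15.4 to 17.4 CPM).

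Other endoderm genes were higher in those 57 cells too. Sparc, a matrix protein abundant in parietal endoderm, was at 1739 CPM against 145.5 CPM in cells with no Dab2 UMI, and the laminin gene Lama1 at 431.1 against 17.4 CPM. The receptor Pdgfra was at 47.5 against 2.42 CPM and Foxq1 at 83.5 against 3.8 CPM. The factor Gata4 was at 4.32 CPM (6 UMIs, interval 1.58 to 9.40) against 0.926 CPM (0.707 to 1.19). Sox7, at 1.44 against 0.478 CPM, rests on 2 UMIs in the 57 cells (interval 0.174 to 5.20). Nanog, a pluripotency factor, was at 51.8 against 476.3 CPM, while Pou5f1 was at 249.7 and 291.6 CPM. Of the 57 cells 73.7% had a Zscan4 UMI and 87.7% a GFP UMI, against 53.7% and 59.2% of cells with no Dab2 UMI, and their median depth was 24230 UMIs against 29507. The part of free RNA or of doublets in these cells was not tested.

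**Figure D3:**
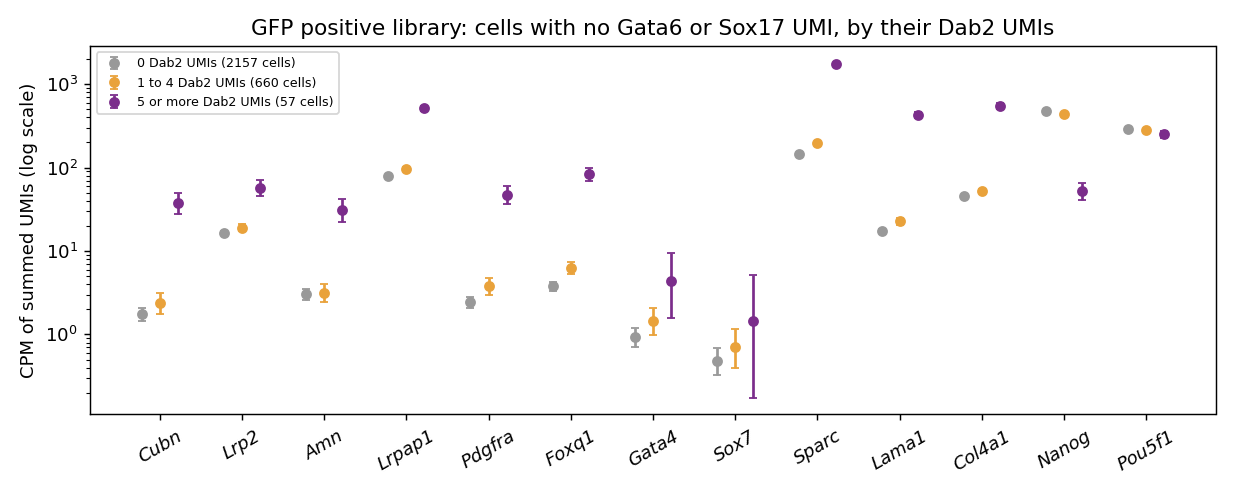
Level of 13 genes as CPM of summed UMIs (log axis) in positive-library cells with no Gata6 or Sox17 UMI before thinning, split by their Dab2 UMIs into 0 (grey), 1 to 4 (orange) and 5 or more (purple); bars are exact 95% Poisson intervals for counting error only. The 57 cells with 5 or more stand apart for Cubn, Amn, Lrpap1, Sparc and Lama1; the cells with 1 to 4 lie above those with 0 for Foxq1 (6.30 and 3.8 CPM) and Sparc (197.7 and 145.5 CPM).

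Zscan4 could be examined only in the positive library, since the negative library had 8 cells with Zscan4 among those without Gata6 or Sox17 and 2 among those with. In cells with Gata6 or Sox17, all 4 genes were lower where Zscan4 was present (507 cells) than where it was not (376 cells). Dab2 was at 278 and 373.1 CPM, a ratio of 0.745 (0.714 to 0.777), and Lrp2 at 43.4 and 57.3 CPM, a ratio of 0.758 (0.680 to 0.845). Cubn was at 35.7 and 44.2 CPM and Amn at 20.6 and 29.8 CPM, but these ratios moved with the random draw of UMIs that set the classes: the log2 ratio of Cubn was -0.30 and -0.81 in 2 draws, and that of Amn -0.51 and -0.98. The 179 cells with at least 5 Zscan4 UMIs had the lowest levels of that class, with Dab2 at 141.3, Cubn at 17.1, Lrp2 at 26.4 and Amn at 9.30 CPM. Of all genes tested 0.944% were called higher with Zscan4 and 0% lower, and none of the 4 genes was called.

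Primitive endoderm markers had log2 ratios below 0 with Zscan4 in those cells too. The 7 tested, of 8, had a median of -0.80, with 0 called lower, where 0% of all genes were. Gata6 and Sox17, which define the cells, are on that list. Median depth was 32135.5 UMIs with no Zscan4 and 22792 UMIs with at least 5. The part of the markers and of depth in the result was not tested. Where cells with at least 5 Gata6 and Sox17 UMIs were compared, those with 1 to 4 Zscan4 UMIs (97 cells) and those with none (138 cells) had Dab2 at 610.4 and 625.9 CPM, a ratio of 0.975 (0.921 to 1.03). The ratios there were 1.16 (1.004 to 1.35) for Cubn, 0.996 (0.852 to 1.16) for Lrp2 and 0.972 (0.799 to 1.18) for Amn. Only 9 cells had at least 5 UMIs of both kinds. In them Dab2 was at 205.6 CPM from 47 UMIs, and Cubn, Lrp2 and Amn had 1, 4 and 2 UMIs.

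In cells without Gata6 or Sox17 the order for Dab2 was the opposite. Dab2 was at 32.0 CPM in 1962 cells with Zscan4 and 17.3 CPM in 1557 without, a ratio of 1.85 (1.71 to 2.01), and it was at 45.6 CPM in the 682 cells with at least 5 Zscan4 UMIs. Cubn was at 3.51 and 2.51 CPM, a ratio of 1.40 (1.12 to 1.76). Lrp2 (17.5 and 19.0 CPM, ratio 0.922, 0.844 to 1.01) and Amn (3.53 and 3.87 CPM, ratio 0.911, 0.746 to 1.11) had intervals that include equal levels. Of all genes 1.29% were called higher with Zscan4 and 0% lower; Dab2 and Lrp2 were not called, and Cubn and Amn were below 10 CPM and not tested. With classes drawn from all UMIs of a cell the log2 ratio of Dab2 was 0.43, against 0.85 after thinning. The Sox17 UMIs left in these cells before thinning moved with Dab2: at 0, 1 to 4 and at least 5 Zscan4 UMIs, Sox17 was at 2.13, 3.28 and 5.68 CPM and Dab2 at 17.3, 26.6 and 45.6 CPM. Few cells held much of the Dab2 here. Of the 2874 cells with no Gata6 or Sox17 UMI even before thinning, the 57 with at least 5 Dab2 UMIs held 52.8% of the Dab2 UMIs. A Zscan4 UMI was found in 73.7% of those 57, against 53.7% of cells with no Dab2 UMI. All 6 parietal endoderm markers tested were above 0 with Zscan4 (0 called, median log2 ratio 0.40). Of 9 tested markers of the 2-cell-like state, which include Zscan4 genes, 8 were called higher. Other lists had 0 genes above 0: the 4 trophoblast genes tested (median -0.87, list sums 79.7 and 138.5 CPM) and the 7 pluripotency genes (median -0.45, sums 3052 and 4074 CPM). Median depth was 33108 UMIs with no Zscan4 and 22446 with at least 5. Their part in the result was not tested. The GFP transcript gave a like split of the cells without Gata6 or Sox17, with Dab2 at 32.3 CPM in cells with and 14.8 CPM in cells without a GFP UMI. In cells with Gata6 or Sox17 Dab2 was at 346.1 CPM with and 281.6 CPM without a GFP UMI, the opposite order to that for Zscan4. The other 3 genes had the same order as for Zscan4 there, with Cubn at 37.9 and 42.5, Lrp2 at 45.9 and 56.2 and Amn at 20.7 and 31.6 CPM.

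**Figure D4:**
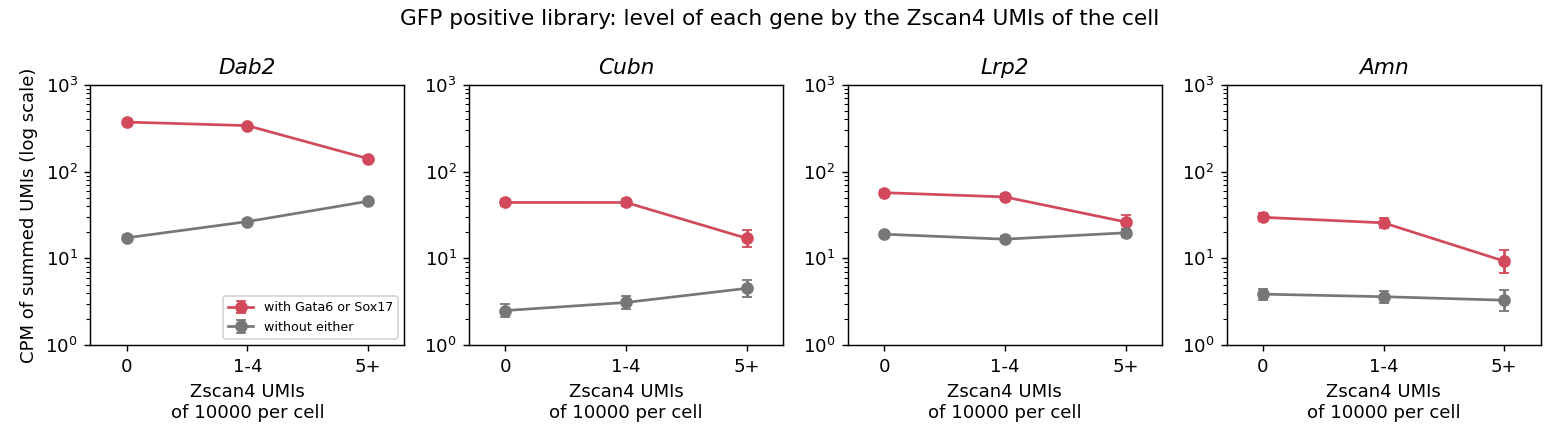
Level of each gene in the MERVL-GFP positive library as CPM of summed UMIs (log axis) against the Zscan4 UMIs of a cell among 10000 (0, 1 to 4, 5 or more), in cells with (red) and without (grey) Gata6 or Sox17; bars are exact 95% Poisson intervals for counting error only. For Dab2 the classes draw together, from 373.1 and 17.3 CPM with no Zscan4 to 141.3 and 45.6 CPM with 5 or more.

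Detection of several of the 4 transcripts in 1 cell differed between cells with and without Gata6 or Sox17. At least 2 of them were detected after thinning in 292 of 883 positive-library cells with Gata6 or Sox17 (33.1%, 29.97 to 36.3) and in 141 of 3519 without (4.01%). In the negative library the counts were 108 of 375 (28.8%, 24.3 to 33.7) and 39 of 3449 (1.13%). All 4 were detected together in 30 and 15 cells with Gata6 or Sox17 (3.4% and 4.0%) and in 4 and 0 cells without. In the 202 positive-library cells with both factors, Dab2 was detected in 82.8% of cells with and 83.3% of cells without Amn. In the 146 such cells of the negative library the shares were 73.6% and 51.4%. Split by Cubn instead, Dab2 was detected in 95.1% of cells with and 75.2% without it in the positive library. The shares in the negative library were 91.1% and 49.5%. Among cells with at least 5 Gata6 and Sox17 UMIs, none of the 4 was detected in 8.20% (positive library) and 24.7% (negative library).

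Among cells with Gata6 or Sox17, most cells with Cubn had Dab2 too. Of positive-library cells with Gata6 or Sox17, Dab2 was detected in 138 of 158 cells with Cubn (87.3%) and in 35.9% of those without it, and in the negative library in 52 of 62 (83.9%) and in 27.5%. Amn, the partner of Cubn in cubam, had fewer UMIs than Dab2 and was detected in 61 of 158 Cubn cells (38.6%, 31.0 to 46.7) in the positive and 42 of 62 (67.7%, 54.7 to 79.1) in the negative library. In cells without Cubn the Amn shares were 10.3% and 17.9%. The share of Cubn cells with Amn moved with the thinning: at 5000 UMIs it was 35.6% and 41.7%, and in another draw 42.8% and 57.8%, so its difference between the libraries depends on that step. Lrp2 was detected in 53.8% of Cubn cells in the positive and 38.7% in the negative library, against 28.1% and 21.1% of cells without Cubn. In cells without Gata6 or Sox17 UMIs after thinning, Dab2 was detected in 41 of 103 Cubn cells (39.8%) in the positive and 2 of 29 (6.90%) in the negative library, against 10.7% and 3.07% of cells without Cubn. Lrp2 was detected there in 25.2% and 10.3% of Cubn cells, against 14.7% and 11.3%. Before thinning, 31.1% and 17.2% of these Cubn cells had a Gata6 or Sox17 UMI, against 17.9% and 10.6% of those without Cubn.

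**Figure D5:**
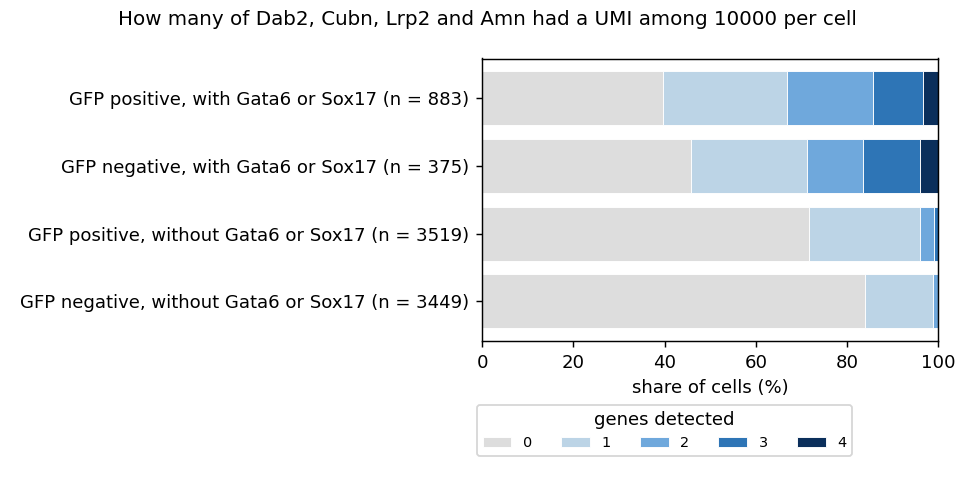
Share of cells (%) with 0, 1, 2, 3 or 4 of Dab2, Cubn, Lrp2 and Amn detected after thinning to 10000 UMIs, in each library by presence of Gata6 or Sox17 UMIs. At least 2 of the genes were found in 33.1% and 28.8% of cells with Gata6 or Sox17 and in 4.01% and 1.13% of cells without.

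Across single cells, the genes whose counts were most like those of Dab2, Cubn and Amn included Srgn and Serpinh1 for all 3 genes, and Dab2 itself for Cubn and Amn. The measure was Pearson's r of ln(1 + UMIs) after thinning, averaged over the libraries (4402 and 3824 cells, 12674 genes); the cells of a library share its preparation, and no p is given. For Dab2 the 5 most alike were Srgn (serglycin, a granule proteoglycan, r = 0.70), the laminin genes Lama1 (0.66) and Lamb1 (0.65), Serpinh1, the collagen chaperone (0.65), and the collagen gene Col4a1 (0.65). Cubn was most like Srgn (0.55) and Dab2 (0.55), then Col4a2, Nostrin and Serpinh1 (0.47 to 0.46), and Amn most like Srgn (0.48), Dab2 (0.44), Serpinh1, Nostrin and Col4a2 (0.42 to 0.41). Lrp2 had only weak likeness to any gene, with Dab2 first at 0.24. Between the members r was 0.55 for Dab2 with Cubn, 0.44 for Dab2 with Amn and 0.38 for Cubn with Amn.

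Of the genes around the receptors, Lrpap1 stood out in Gata6 and Sox17 cells. Lrpap1 encodes RAP, the chaperone that keeps megalin and its relatives from binding ligand on their way to the surface. It was at 371.2 CPM in cells with and 97.4 CPM in cells without Gata6 or Sox17 in the positive library, and at 369.5 and 36.2 CPM in the negative library, log2 ratios of 1.92 (not called) and 3.31 (called). In the 57 cells with 5 or more Dab2 UMIs and no Gata6 or Sox17 it was at 512.4 CPM. Lrp6, a Wnt co-receptor listed beside it, was near equal between the classes, with log2 ratios of 0.03 and 0.06. Of the 10 genes of that list 5 were tested, with 0 called in the positive and 1 in the negative library, and median log2 ratios of 0.03 and 0.06.

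The general machinery of clathrin uptake had no called gene by Gata6 and Sox17 in either library, where 0.581% and 1.27% of all genes were called higher; at those shares a count of 0 in lists of this size is near the background and is no result about these genes. All 12 clathrin coat genes were tested, with 0 called and median log2 ratios of 0.05 and 0.12; Clta and Cltc, the light and heavy chains with the most UMIs, were at 0.36 and 0.46 in the positive and 0.41 and 0.54 in the negative library. Of 8 cargo adaptors 5 were tested and 0 called, with medians of 0.13 and 0.25; Snx17, a sorting nexin that recycles endocytic receptors, was at 0.13 and 0.25, and Gipc1 at -0.07 and -0.06. Of 11 endosome genes 10 were tested and 0 called, with medians of 0.10 and 0.36, among them Vps35 of the retromer at 0.08 and 0.07 and Rab5a at 0.11 and 0.26. The 7 lysosome genes had medians of 0.54 and 0.59 with 0 called; Ctsl, a cathepsin, was highest at 1.45 and 1.46, and Lamp1 was at 0.54 and 0.55. Of 12 cargo and carrier genes 3 were tested and 0 called, with Apoe at 1.21 and 0.77, and transcobalamin Tcn2 at 1.20 and 0.97.

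Endoderm markers moved with the 4 genes, and visceral endoderm secretory genes were nearly absent. Of 8 primitive endoderm markers 6 were tested and 6 called higher in cells with Gata6 or Sox17 in both libraries; 2 of them, Gata6 and Sox17, define the classes, and the others were Gata4, Sox7, Pdgfra and Foxq1. Of 9 parietal endoderm markers 7 were tested, with 5 called higher in the positive and 7 in the negative library. Of 7 visceral endoderm markers other than Amn only Rhox5 was tested, at log2 ratios of 0.83 and 1.28, not called. Afp, Ttr, Apoa1 and Apob, secreted proteins of visceral endoderm, were each under 1 CPM in every one of these 4 classes, with Ttr at 0 UMIs in the negative library, and Hnf4a was at 1.68 and 1.54 CPM with Gata6 or Sox17. Cited1 was at 8.06 and 7.93 CPM with and without Gata6 or Sox17 in the positive and 2.89 and 0.654 CPM in the negative library. The 7 pluripotency genes had median log2 ratios of -0.97 and -0.78 with 0 called. The 9 trophoblast genes summed to 116.4 and 107.9 CPM with and without Gata6 or Sox17 in the positive and 80.4 and 64.8 CPM in the negative library, with 0 called of 4 and of 3 tested. Other lists were lower: summed levels were 2.69 to 13.7 CPM for 8 fibroblast genes, 6.58 to 9.16 CPM for 6 macrophage genes, 5.52 to 11.5 CPM for 4 neural progenitor genes and 3.48 to 8.03 CPM for 6 mesendoderm genes.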

How the data were processed

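For each library the authors deposited a sparse matrix of raw counts, whole numbers for genes by cells, with lists of genes and barcodes. The counts are taken as UMIs, from barcodes of 16 bases and a single-cell library source, although the extraction protocol names a bulk RNA kit. STAR 2.7.6a, Trim Galore 0.6.4, FastQC 0.11.2 and mm10 are named in the submitters' processing notes, with no role given; cell calling is not given in the sources used here. GRCm38 and mm10 are the same build.

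Cells with at least 1000 UMIs, 500 genes and at most 20% mitochondrial UMIs were kept. Classes and shares of cells come from 1 draw without replacement of 10000 UMIs per cell, and CPM from all UMIs of a class. Zscan4 is the sum of 6 genes, Zscan4a to Zscan4f. Log2 ratios use CPM + 1. Intervals are exact Poisson, conditional and Clopper-Pearson at 95%. Doublets were left in, with an alternative without cells above 2 times the median UMIs. Genes named are the 4 members, listed genes past the size rule, at most 2 more per list with the most UMIs, and the 5 genes most alike; any other gene named was picked once its values were known. The members and lists were chosen with earlier results of these data known. The size rule and ratio intervals were tested on simulated Poisson counts of library sums. Those counts lack the clumping of UMIs within cells, so the simulation cannot say how the intervals hold in these data. Promoters are RefSeq GRCm38.p6 and gene positions GENCODE vM21. Alternatives changed scaling, filter, thinning and class limits; another thinning draw, the values without shared barcodes, the class splits at matched Gata6 and Sox17 UMIs and scalings within classes were added after seeing the data. TMM factors came from edgeR 4.0.16 in R 4.3.3, and all else from scipy 1.17.1, numpy 2.4.6 and pandas 2.3.3 under Python 3.11.15. The value of 1 listed gene is not reported here.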

Additional observations from a re-analysis of the deposited data

How the results depend on the processing

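Depth limits all 4 genes, since the median cell with a UMI of any of them had 1 even before thinning. With 1 library per group the difference between libraries has no replicate check. No paired analysis was possible because there is just 1 library in each group. The cause of the shifts below was not tested, except that the number of UMIs per cell sets the share of cells with a UMI by construction.

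Between the libraries, TMM factors gave log2 ratios of 1.67 for Dab2, 0.79 for Cubn, 0.43 for Lrp2 and -0.0768 for Amn, and median-of-ratios factors 1.68, 0.79, 0.44 and -0.0751; the other 16 values stayed within the counting interval, though Dab2 crossed the 4-fold limit at 2.01 without cells above 2 times the median UMIs. Within Gata6 or Sox17 cells Cubn turned to -0.19 and -0.18. Shares of cells in the positive library were 13.6%, 3.83%, 10.8% and 3.55% for Dab2, Cubn, Lrp2 and Amn at 5000 UMIs and 32.2%, 11.2%, 39.5% and 13.4% without thinning. In the negative library they were 4.20%, 1.75%, 7.25% and 2.87%, and 14.8%, 5.56%, 38.2% and 11.7%.

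For cells with over without Gata6 or Sox17, all values kept their direction. At least 2 UMIs gave 4.31, 4.08, 1.93 and 3.20 for Dab2, Cubn, Lrp2 and Amn in the positive and 6.03, 5.01, 1.66 and 4.61 in the negative library. Classes without thinning gave 3.25, 2.82, 0.97 and 1.87, and 4.57, 3.51, 0.74 and 3.09, so that Amn was under the 4-fold limit in the positive library. Gata6 alone gave 3.83, 3.59, 1.60 and 2.697 in the positive library. Sox17 alone gave 2.74 for Dab2 and 3.03 for Cubn in the positive, and 1.55 for Lrp2 and 4.25 for Amn in the negative library. Another draw gave 3.49 for Dab2 in the positive library.

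For Zscan4 in Gata6 or Sox17 cells, at least 5 UMIs gave -1.39, -1.32, -1.09 and -1.58, another draw -0.81 for Cubn and -0.98 for Amn, and no thinning -0.97 for Amn. In cells without Gata6 or Sox17, Dab2 was at 1.35, 0.996 and 0.43 under the same 3 settings, and Lrp2 at 0.05 with at least 5 UMIs. The share of Cubn cells with Amn, in the positive and negative library, was 58.0% and 81.2% without thinning, 35.6% and 41.7% at 5000 UMIs and 42.8% and 57.8% in another draw.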
